A study of Mus musculus with 6 samples.

Results

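The p200 family, also called the PYHIN or HIN-200 family, is a set of interferon-inducible proteins encoded by neighbouring genes on mouse chromosome 1. Its 10 members examined here are Ifi203, Ifi204, Ifi205, Ifi207, Ifi208, Ifi209, Ifi211, Ifi213, Mndal and Aim2. They were found by gene symbol, and all 10 had a row among the 16775 genes of the count table. RNA-seq had been performed on osteoclasts, the cells that resorb bone, grown from bone marrow macrophages of WT mice. The control osteoclasts (CONTROL, replicates 1 and 3) and the osteoclasts given verapamil (VERAPAMIL, replicates 1 to 3), a blocker of voltage-gated calcium channels, both received M-CSF at 30 ng/ml and RANKL at 50 ng/ml. The titles give day 5, the protocol describes feeding up to day 7, and the labels state neither the verapamil dose nor when it was added. Labels also describe a control replicate 2, which was not analysed here, and they do not tell whether replicates were separate animals or cultures. The p-values below therefore measure the spread between these 5 libraries, which may be technical.

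Proteins of this family typically combine a pyrin domain, which binds other pyrin domains, with 1 or more HIN domains, which bind DNA. Several of them detect DNA in the cytosol or nucleus: AIM2 assembles an inflammasome through the adaptor ASC (Pycard), whereas p204 (Ifi204) and others have been tied to STING and the induction of type I interferon. Most of the genes are themselves induced by interferon in macrophages, through a factor containing IRF9 that acts on promoter elements of the ISRE type. They arose by local duplication, so that the paralogues share long stretches of sequence.

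The whole family lay between 173349547 and 174031755 on chromosome 1 of GRCm38, a span of 682.2 kb. From the low to the high coordinate the order was Aim2, Ifi213, Ifi209, Ifi208, Ifi207, Ifi204, Mndal, Ifi211, Ifi203 and Ifi205, with Ifi206 and Ifi214 between Aim2 and Ifi213, and Ifi202b between Ifi203 and Ifi205. Aim2, Ifi208 and Ifi209 are read from the plus strand and the others from the minus strand. Promoters, from 250 bases before to 50 bases after a start site, were taken from RefSeq on GRCm38.p6 for 9 of the 10 members, all but Ifi204. The core of the interferon-stimulated response element, GAAA, any 2 bases, GAAA, was searched on both strands. It was present in promoters of 7 members, at 8 of the 11 start sites listed for the 9 members, against 3.44% of all 32851 mouse promoters of the same length. The gamma-activated site TTCNNNGAA, which reads the same on both strands, was in 0 of the 11, against 8.3% of all promoters. A match describes the letters only and shows neither binding nor activity.

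The 60-base windows around this motif are shown because some recur between paralogues. Those of Ifi203 and Mndal are the same letters, as are those of Ifi208 and Ifi213, and the others are less alike. Each is written 5′ to 3′ on the strand of its gene, and the capitals mark the 10 bases of the motif. In the windows of Ifi203 (chr1:173942493-173942552) and of the second Mndal start site (chr1:173880189-173880248) the motif begins 35 and 36 bases upstream of the start. In those of Ifi208 (chr1:173673582-173673641) and Ifi213 (chr1:173599311-173599370) the motif begins 58 and 73 bases upstream. The windows of Ifi211 (chr1:173913049-173913108), Ifi207 (chr1:173741816-173741875) and Ifi205 (chr1:174031855-174031914) hold motifs that begin 37, 41 and 134 bases upstream. For Ifi209 (chr1:173630755-173630814) the stretch that aligns with the motif of its neighbour Ifi214 (chr1:173536002-173536061) is capitalised instead.
Ifi203: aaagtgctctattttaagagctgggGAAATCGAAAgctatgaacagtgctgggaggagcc
Mndal: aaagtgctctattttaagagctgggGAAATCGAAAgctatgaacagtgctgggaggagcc
Ifi208: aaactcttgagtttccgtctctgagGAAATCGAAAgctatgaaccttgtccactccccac
Ifi213: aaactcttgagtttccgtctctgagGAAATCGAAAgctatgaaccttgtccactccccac
Ifi211: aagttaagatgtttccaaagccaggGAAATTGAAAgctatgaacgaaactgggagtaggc
Ifi207: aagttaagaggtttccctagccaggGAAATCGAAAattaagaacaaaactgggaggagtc
Ifi205: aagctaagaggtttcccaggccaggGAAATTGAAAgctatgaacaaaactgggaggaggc
Ifi209: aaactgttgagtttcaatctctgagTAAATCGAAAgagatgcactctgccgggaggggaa
Ifi214: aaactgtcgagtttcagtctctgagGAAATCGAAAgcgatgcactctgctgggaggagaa

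Over the 250 bases upstream of the start, Ifi203 was 89.3% identical to Mndal and Ifi208 87.9% to Ifi213. Ifi207 was 85.0% identical to Ifi211 and Ifi209 94.4% to Ifi214, while Ifi205 was 40.4% identical to Ifi211 and 39.6% to Ifi207. Ifi209 had no exact match to the motif. Against Ifi214 its aligned stretch carries the substitution G1T, counted from 1 at the 5′ end of the 10 bases. Aim2 had no match in the promoter of its listed start site, which lies inside the annotated span of the gene.

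Verapamil-treated osteoclasts held lower levels of 8 of the 10 p200 genes and a higher level of Aim2, whereas Ifi207 was not called. By edgeR's quasi-likelihood test, with p adjusted by the Benjamini-Hochberg method over 12619 tested genes and a threshold of 0.05, 15.4% of all tested genes were called lower and 9.99% higher. The log2 fold changes of the 8 lower members ran from -4.90 (Ifi213) to -1.06 (Mndal). The median of the 10 members was -1.68, and that of all tested genes was -0.01. In 9 of the 10 the control and verapamil libraries did not overlap, as was the case for 56.7% of all tested genes. These are differences per unit of total RNA: fewer cells of a type and less of a transcript per cell cannot be told apart in bulk libraries. All levels below are CPM (counts relative to the TMM-scaled size of the library) and are listed for control replicates 1 and 3, then verapamil replicates 1, 2 and 3.

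**Figure D1:**
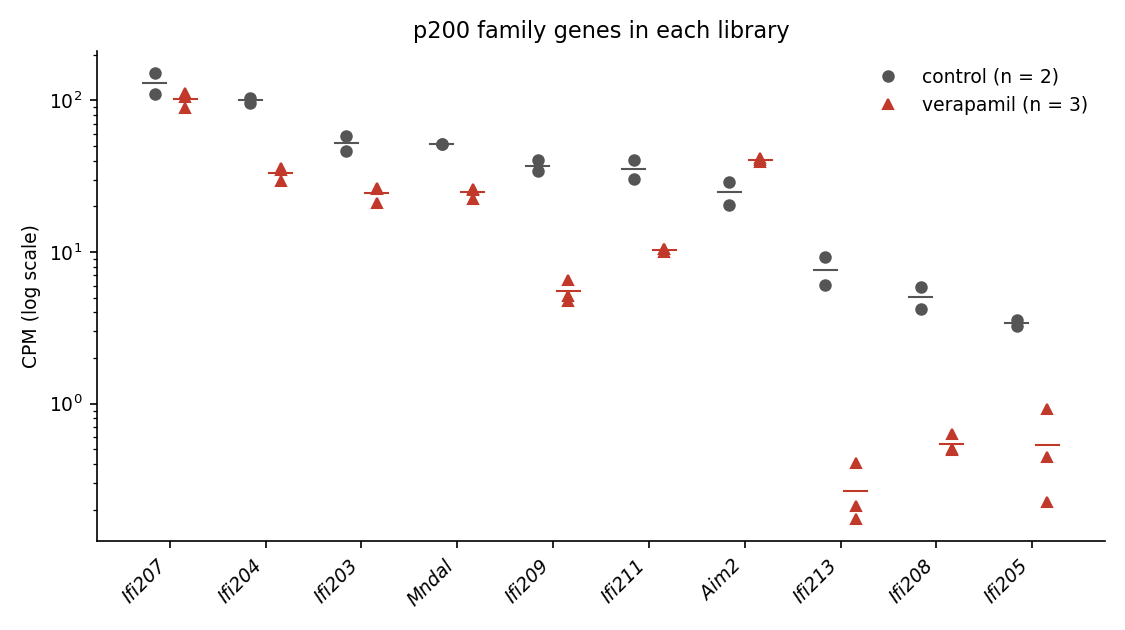
Level of each p200 gene in every library, in CPM on a log axis, with grey circles for the 2 controls, red triangles for the 3 verapamil libraries and a line at each group mean. Verapamil libraries lie below the controls for 8 genes and above them for Aim2. For Ifi207 replicates 1 and 2 lie below both controls and replicate 3 between them. The widest gap is that of Ifi213.

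Aim2 is the family member that nucleates an inflammasome on double-stranded DNA. Its levels were 20.5 and 28.9 CPM in the controls and 39.2, 40.5 and 41.6 CPM with verapamil. All 3 treated libraries lay above both controls, which differed from each other more than the treated ones did. The means were 24.7 ± 5.93 CPM for controls (SD, n = 2) and 40.4 ± 1.21 CPM for verapamil (SD, n = 3), and Aim2 rose by 0.71 in log2 terms (SE 0.164, adjusted p = 0.0248). This call was lost when any 1 of the 3 verapamil libraries was left out, with log2 fold changes of 0.73, 0.71 and 0.69 (adjusted p = 0.0845, 0.0936 and 0.102 without replicates 1, 2 and 3). Only 0.9% of the 50-base words of its longest coding transcript occur in any other gene, and 0.0% within the family.

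Ifi204 encodes p204, a DNA sensor of mouse macrophages that is often compared with human IFI16. It was measured at 96.5 and 103 CPM in the controls and at 29.4, 34.9 and 35.7 CPM with verapamil. Every treated library was thus below 36 CPM and both controls were close to 100. The means were 99.8 ± 4.67 CPM in controls (SD, n = 2) and 33.3 ± 3.43 CPM with verapamil (SD, n = 3), a log2 fold change of -1.58 with an SE of 0.12 (adjusted p = 0.000701).

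Ifi203 and Mndal had log2 fold changes that lay within 1 SE of each other. IFI203 has been tied to the sensing of retroviral DNA with STING, and Mndal is a nuclear protein named for its likeness to the human myeloid nuclear differentiation antigen. Ifi203 measured 46.6 and 58.2 CPM in the controls and 21.0, 26.1 and 26.2 CPM after treatment, a log2 fold change of -1.10 with an SE of 0.156 (adjusted p = 0.00472). Mndal measured 51.7 and 51.5 CPM against 22.4, 25.8 and 26.1 CPM, a log2 fold change of -1.06 with an SE of 0.114 (adjusted p = 0.00195). Within each of these genes the lowest library was verapamil replicate 1, and the groups were apart. Their upstream sequences are the closest pair among the members, while 5.2% of the 50-base words of Ifi203 recur in Mndal. Ifi207 and Ifi211 were 85.0% identical upstream and had log2 fold changes of -0.36 and -1.79. Whether upstream likeness goes with a like change was not tested.

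Ifi207, which has also been linked to STING-dependent sensing, was the member with the smallest difference. The controls held 111 and 151 CPM and the treated libraries 89.2, 105 and 112 CPM, so that verapamil replicate 3 exceeded control replicate 1. The means were 131 ± 28.6 CPM (SD, n = 2) and 102 ± 11.7 CPM (SD, n = 3), and the log2 fold change of -0.36 (SE 0.167) did not pass the test (adjusted p = 0.161). The result depended on which control was used. Without control replicate 1 the log2 fold change was -0.56 and was called (adjusted p = 0.00499), and without control replicate 3 it was -0.12 (adjusted p = 0.392). In both of these fits the spread is that of the treated libraries alone.

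Ifi211 and Ifi205 are the most alike in transcript sequence. p205, the product of Ifi205, is known as a regulator of Pycard expression in macrophages. Ifi211 stood at 40.5 and 30.4 CPM in the controls and at 10.5, 10.5 and 9.95 CPM with verapamil, a log2 fold change of -1.79 (SE 0.148, adjusted p = 0.000894). Ifi205 was sparse, at 3.24 and 3.57 CPM against 0.448, 0.924 and 0.223 CPM, with a log2 fold change of -2.66 (SE 0.429, adjusted p = 0.00746). Treated libraries of Ifi205 varied more, relative to their mean, than those of Ifi211, but each was below both controls. Of the treated libraries only verapamil replicate 2 reached the filter's minimum of 10 counts, so Ifi205 was tested because of its controls. It was represented by 156 counts in the controls together and 32 in the treated libraries, a depth-adjusted ratio of 0.156 with an exact 95% interval of 0.103 to 0.23 that covers counting error only.

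Ifi209, Ifi208 and Ifi213 lie side by side in the part of the cluster nearer to Aim2. Ifi209 was found at 34.0 and 40.1 CPM in the controls and at 5.14, 6.58 and 4.77 CPM with verapamil, a log2 fold change of -2.75 (SE 0.167, adjusted p = 0.000451). Ifi208 was found at 5.88 and 4.22 CPM against 0.503, 0.497 and 0.633 CPM, a log2 fold change of -3.19 (SE 0.261, adjusted p = 0.000865). For both genes every treated library was below either control, and the treated mean was 14.8% of the control mean for Ifi209 and 10.8% for Ifi208.

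Ifi213 had the largest change of the family. Only 8 of the 12619 tested genes had a lower log2 fold change, a rank that favours genes sparse in 1 group. Each treated library held fewer counts of Ifi213 than the filter's minimum of 10, so it was tested through its controls alone. Its levels were 6.04 and 9.22 CPM in the controls and 0.211, 0.173 and 0.407 CPM with verapamil, a mean of 3.45% of control. The log2 fold change was -4.90, with an SE of 0.371 (adjusted p = 0.000695). The treated libraries held 15 counts of it in all, against 350 in the controls, a ratio of 0.0326 with an exact 95% interval of 0.0181 to 0.0546. The printed windows of Ifi213 and Ifi208 are the same 60 bases. Whether the changes of the 2 genes differ was not tested.

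**Figure D2:**
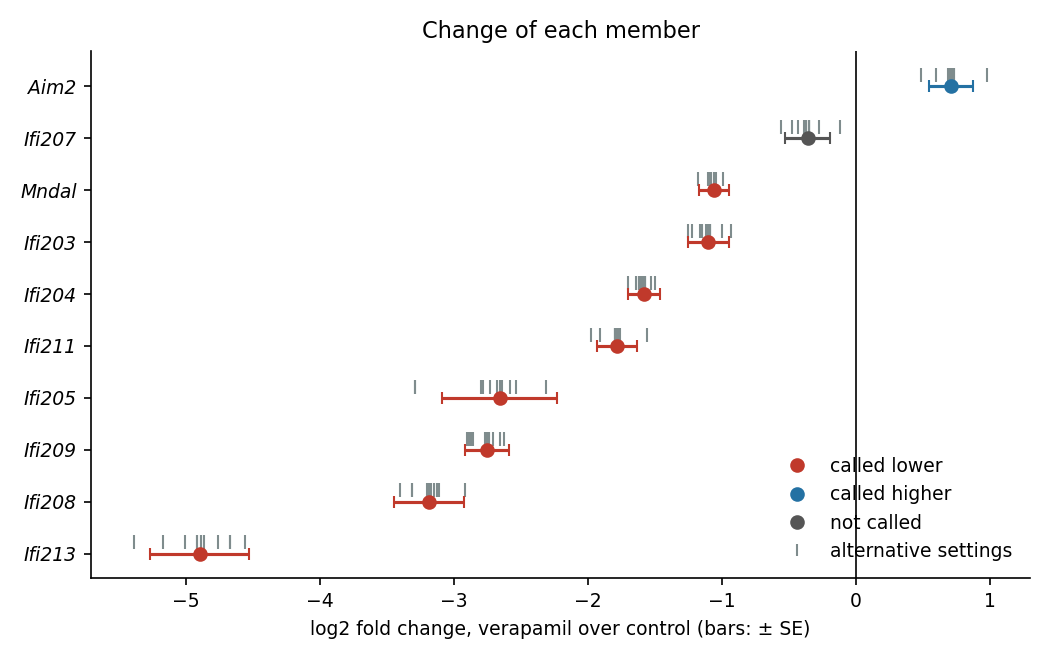
Log2 fold change of each member, verapamil over control, as a point with a bar of 1 SE above and below, coloured by the call, with grey ticks for its value under each alternative setting. All ticks of the 8 lower genes lie below -0.9, those of Aim2 between 0.49 and 0.98, and those of Ifi207 between -0.56 and -0.12.

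Because reads can match more than 1 paralogue, the counts of the single genes depend on how the authors' counting divided such reads, which is not stated. The share of 50-base words of the longest coding transcript that occur in another gene was 72.9% for Ifi211, 49.6% for Ifi205, 35.1% for Ifi209 and 30.2% for Ifi204. It was 27.9% for Ifi213, 27.2% for Mndal, 26.0% for Ifi208, 10.9% for Ifi203 and 7.2% for Ifi207. Ifi211 shared 44.6% of its words with Ifi205 and 30.0% with Ifi204, and Ifi209 shared 34.7% with Ifi214. Values of Ifi211, Ifi205, Ifi209, Ifi204, Ifi213, Ifi208 and Mndal are uncertain for this reason, and the shares do not give the size of the error. Ifi205, with a control mean of 3.4 CPM, shared 49.5% of its words with Ifi211, whose control mean was 35.5 CPM. Over 100 bases the shares of Ifi213 and Ifi208 were 6.1% and 8.2%, while that of Ifi211 was still 56.9%.

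Sums over genes linked by shares of at least 10% of such words, directly or through another gene, depend less on that division. The sum of Ifi204, Ifi205, Ifi211 and Mndal was 190 ± 2.38 CPM in controls (SD, n = 2) and 68.9 ± 5.37 CPM with verapamil (SD, n = 3), a log2 fold change of -1.47 (adjusted p = 0.000613). The sum of Ifi206, Ifi208 and Ifi213 went from 18.1 ± 1.74 to 1.47 ± 0.416 CPM, a log2 fold change of -3.62 (adjusted p = 0.000514). Ifi209 with Ifi214 went from 37.2 ± 4.42 to 5.53 ± 0.941 CPM, a log2 fold change of -2.75 (adjusted p = 0.00045). Each of these sums was lower in all 3 treated libraries than in either control. They were chosen after the values had been seen.

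The summed level of all 10 members was 416 and 480 CPM in the controls and 218, 251 and 257 CPM in the treated libraries. The log2 fold change of this sum was -0.89 (SE 0.119, adjusted p = 0.00389), and with Aim2 left out it was -1.07 (SE 0.122, adjusted p = 0.00237). Of the other family genes, Ifi206 was at 4.92 and 5.86 CPM in the controls and at 0.329, 0.821 and 0.834 CPM with verapamil, and fell by 3.00 (SE 0.33, adjusted p = 0.00205). Ifi202b (6 and 4 counts in the controls, 0, 3 and 0 with verapamil) and Ifi214 (1.12 and 4.21 against 1.54, 0 and 0) were too sparse to be tested.

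Levels of different genes were compared as CPM per kilobase of the longest annotated transcript. In the controls Ifi204 (43.5 ± 2.03, SD, n = 2) and Ifi207 (38.3 ± 8.34) were the highest and overlapped. Mndal (25.5 ± 0.0629), Ifi211 (19.9 ± 4.01) and Ifi203 (13.95 ± 2.19) came next without overlapping each other. Ifi209 (10.8 ± 1.26) and Aim2 (8.69 ± 2.09) overlapped, as did Ifi213 (2.47 ± 0.728) and Ifi208 (1.69 ± 0.394), and Ifi205 was the lowest (1.04 ± 0.0698). With verapamil the order changed at the top: Ifi207 (29.8 ± 3.41, SD, n = 3) stood alone, followed by Ifi204 (14.5 ± 1.49) and Aim2 (14.2 ± 0.424), which overlapped. Mndal (12.2 ± 1.02) overlapped Ifi204 but not Aim2, and Ifi203 (6.51 ± 0.789) overlapped Ifi211 (5.77 ± 0.168). Ifi209 (1.60 ± 0.277) stood alone, and Ifi205 (0.162 ± 0.109) overlapped both Ifi208 (0.182 ± 0.0257) and Ifi213 (0.0853 ± 0.0406).

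Aim2 accounted for 4.59% to 5.83% of the family's summed CPM per kilobase in the controls and for 16.2% to 17.9% with verapamil. The share of Ifi207 went from 20.6% to 25.3% in the controls to 33.8% to 36.3%, and that of Ifi204 from 25.8% to 26.8% down to 16.6% to 17.3%. The share of Mndal was 14.6% to 16.2% and then 14.3% to 14.4%. With all exons joined as the length, Ifi207 ranked first in both groups. The longest transcripts of Ifi205 and Ifi213 are non-coding, and with the longest coding transcript the control level of Ifi205 was 2.11 CPM per kilobase.

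**Figure D3:**
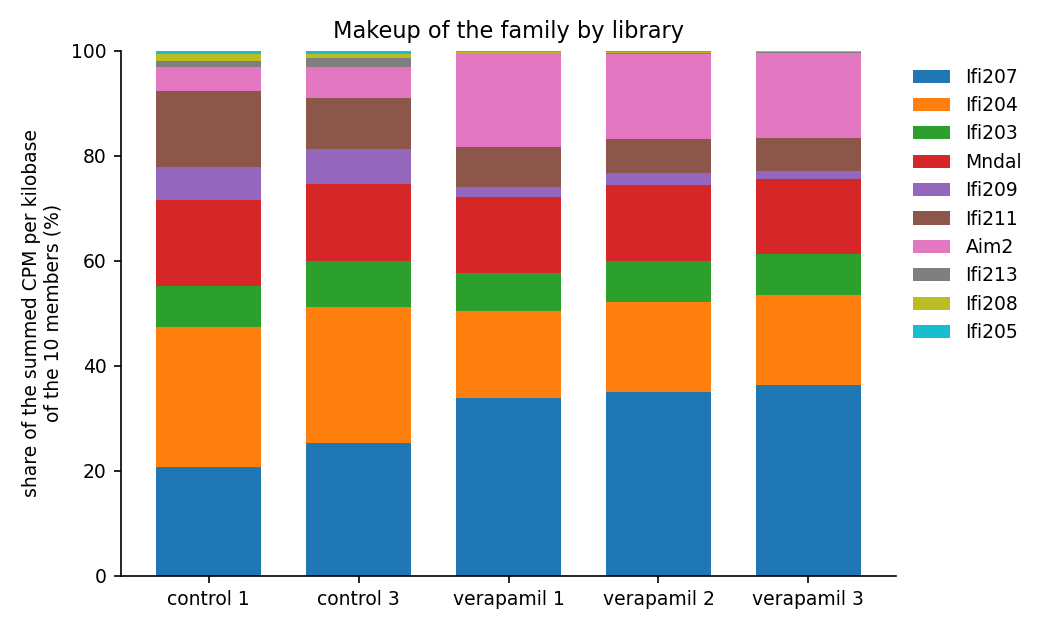
Share of each member in the summed CPM per kilobase of the 10 genes, in percent, as 1 stacked bar per library. Aim2 and Ifi207 take larger shares in each of the 3 verapamil bars than in the 2 control bars, and Ifi204, Ifi211 and Ifi209 smaller ones.

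The genes upstream of the family were followed in 20 genes for interferon receptors and JAK-STAT signalling. Of these, 7 were called lower and 0 higher, against 15.4% and 9.99% of all tested genes. Their median log2 fold change was -0.21. Irf9, the DNA-binding subunit of the factor that recognises the ISRE, measured 37.1 and 38.5 CPM in the controls and 21.8, 22.7 and 22.0 CPM with verapamil, and fell by 0.77 (adjusted p = 0.00342). Usp18, an interferon-induced brake on the type I receptor, fell by 2.44 (adjusted p = 0.0012), and Socs3, a feedback inhibitor of cytokine receptors, fell by 0.74 (adjusted p = 0.00569).

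Among 22 genes of cytosolic and endosomal DNA sensing, 7 were called lower and 2 higher, with a median of -0.23. The shares of all tested genes were 15.4% lower and 9.99% higher. Irf7, a transcription factor for type I interferon genes, was at 31.0 ± 4.87 CPM in controls (SD, n = 2) and at 4.84 ± 0.998 CPM with verapamil (SD, n = 3), a log2 fold change of -2.68 (adjusted p = 0.000669). Zbp1, a sensor of Z-form nucleic acid, fell by 2.33 (adjusted p = 0.00102), and Trex1, the exonuclease that degrades cytosolic DNA, had a log2 fold change of -2.00 (adjusted p = 0.00208). Ifi35, a partner of Nmi, had one of -0.94 (adjusted p = 0.0143). Sting1, the adaptor through which p204 is thought to act, had a log2 fold change of -0.47 (adjusted p = 0.0206). Cgas, the sensor that makes the STING ligand cGAMP, had a log2 fold change of 0.18 (adjusted p = 0.613). Enpp1, which hydrolyses cGAMP, rose by 0.94 (adjusted p = 0.00257), and Rnaseh2b, a subunit of the RNase that removes RNA from DNA hybrids, rose by 0.64 (adjusted p = 0.0299). The count of 7 became 4 without any 1 of the verapamil libraries.

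The 14 inflammasome genes, not all of them parts of the AIM2 inflammasome, had 2 called lower, 1 called higher and a median of -0.29. Those counts lay near the shares of all tested genes, 15.4% lower and 9.99% higher. The partners of Aim2 did not pass the test: Pycard had a log2 fold change of -0.62 (adjusted p = 0.0574) and Casp1 one of -0.04 (adjusted p = 0.81). Il1b, a cytokine cut by caspase-1, was at 2.56 and 2.01 CPM in the controls and at 0.344, 0.361 and 0.789 CPM with verapamil, and fell by 2.18 (adjusted p = 0.0103). Mefv, which encodes pyrin, fell by 1.28 (adjusted p = 0.0103), and Nek7, which binds NLRP3, rose by 0.49 (adjusted p = 0.0301). The count of 2 became 1 without verapamil replicate 1 or 3.

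**Figure D4:**
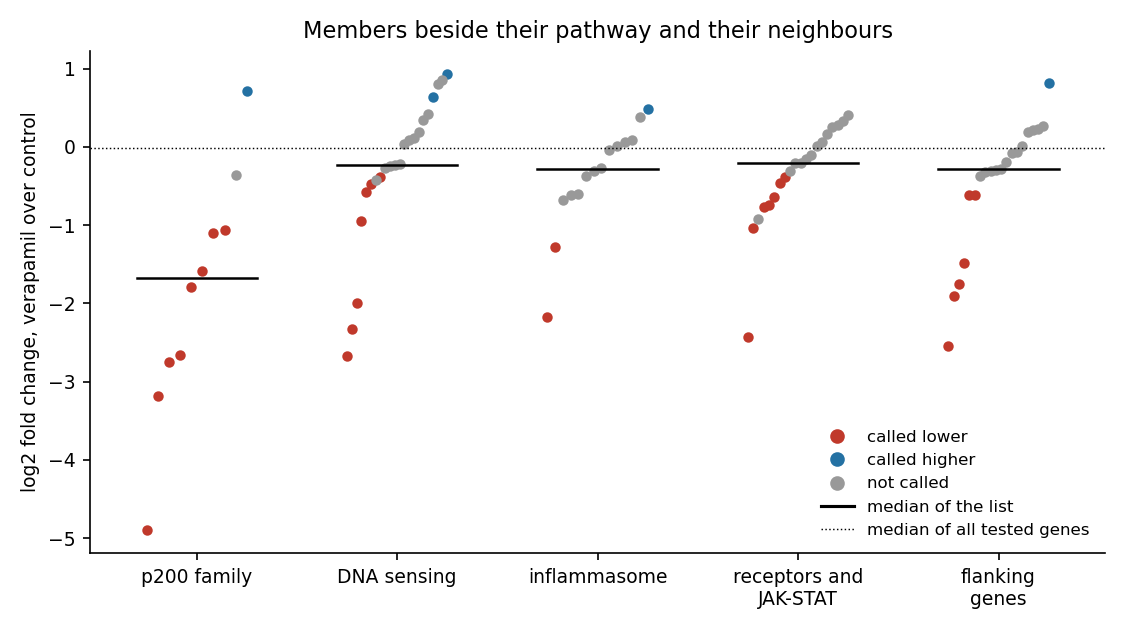
Log2 fold changes of the tested genes of each list, verapamil over control, as 1 point per gene coloured by the call, with a line at the list's median and a dotted line at the median of all tested genes. The median of the p200 family is -1.68, and those of the other 4 lists lie between -0.29 and -0.21.

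The 20 tested genes that flank the cluster, 10 on each side, lay outside its span; the nearest on the low side, Dusp23, was 716.6 kb away. Of these 6 were called lower and 1 higher, against 15.4% and 9.99% of all tested genes. Their median was -0.29, against -1.68 in the family. The lower ones included Kmo (-2.55, adjusted p = 0.0112), Slamf9 (-1.91, adjusted p = 0.00472) and Exo1 (-1.49, adjusted p = 0.0286), with Fh1 (-0.62, adjusted p = 0.00863) and Tagln2 (-0.61, adjusted p = 0.0236). The count of 6 was 3 without verapamil replicate 2 and 2 without verapamil replicate 3.

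The promoter motif was also counted outside the 10 members. Of 388 tested non-member genes with it, 90 (23.2%) were called lower and 31 (7.99%) higher. The family gene Ifi206 is among those called lower. Of 9673 tested genes with a listed promoter and without it, 1358 (14%) were lower and 10% were higher. The median log2 fold changes of these sets were -0.04 and -0.0035. Among the 7 members with the motif the log2 fold changes ran from -4.90 (Ifi213) to -0.36 (Ifi207). Of the others, Ifi209, without an exact match, had -2.75, Aim2, without a match, 0.71, and Ifi204, without a listed promoter, -1.58.

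Some markers of cell types and states moved with the p200 genes, and their part in the result was not tested. The counts below stand beside 15.4% of all tested genes called lower and 9.99% called higher. The libraries held 20202340 to 21494523 counts each. Of 12 osteoclast markers 8 were called lower and 1 higher, Atp6v0d2, which rose from a mean of 522 to 1028 CPM. They summed to 7190 to 7900 CPM in the controls and 3460 to 3610 CPM with verapamil, most of it Acp5, Ctsk, Mmp9 and Atp6v0d2, while Ocstamp was as low as 3.99 CPM. Of 16 macrophage markers 10 were lower and 2 higher. Their sum of 31300 to 31500 CPM, most of it Lyz2, was 42300 to 46000 CPM with verapamil. The 2 higher ones were Lyz2 (a mean of 21450 against 37620 CPM) and Mertk (204 against 322 CPM). Among the lower ones C1qa went from a mean of 944.5 to 152.9 CPM and Folr2 from 31.5 to 2.77 CPM. Of 8 tested dendritic cell and class II genes 7 were lower and 1 higher (170 to 202 against 137 to 142 CPM in sum). The higher one, Itgax, rose from a mean of 57.6 to 122 CPM and made up most of the treated sum. Among the lower ones, Cd74 went from a mean of 61.2 to 5.94 CPM, Mgl2 from 33.2 to 4.21 CPM and Zbtb46, a transcription factor of dendritic cells, from 4.23 to 1.36 CPM. Flt3, Ccr7, Xcr1 and Clec9a of the same list were at most 0.622 CPM in any library. For plasmacytoid dendritic cells 1 of 4 tested markers, Spib, was lower (a mean of 6.79 against 0.853 CPM), the sum was 217 to 282 against 159 to 175 CPM, and Siglech was at most 0.132 CPM. Of 5 tested monocyte and neutrophil markers 1 was lower and 1 higher (39.1 to 41.4 against 45.6 to 53.9 CPM), and of 3 lymphocyte markers likewise (210 to 298 against 393 to 426 CPM, nearly all of it Cd4). Of 10 tested stromal and osteoblast markers 9 were lower (1040 to 1220 against 446 to 465 CPM), most of the sum being Col1a1 and Col1a2. Cxcl12 went from a mean of 45.5 to 9.32 CPM and Col3a1 from 32.2 to 4.99 CPM, and Lum was at most 0.103 CPM.

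The 5 genes outside the family whose profile over the 5 libraries was nearest to the mean profile of the members were Cnn3, Cavin1, Msrb3, D17H6S56E-5 and Spic, by Euclidean distance of centred log2 CPM. Their distances ran from 0.0949 to 0.176, and their log2 fold changes from -1.84 (Cavin1) to -1.77 (Msrb3). With only 2 groups a near profile mainly reflects a like fold change, and shared control was not tested. Ifi204 was the member nearest to the mean of all members, at 0.257, and Ifi213 and Aim2 were the farthest, at 3.09 and 2.78.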

How the data were processed

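RNA was made into libraries from 1.3 ug of total RNA with a SMARTER kit, per the labels' protocols. The deposited table holds the authors' estimated counts per gene, with decimals. Aligner, counting program, annotation, read length and use of strand: not given in the sources used here. Per the submitters' processing notes, the builds were GRCm38 and mm10. Exons of Mndal overlap those of other genes, most of all Gm38050, over 4.3% of their bases. Those of Ifi203 overlap other genes, most of all Mndal, over 0.6%. Reads in these stretches may match more than 1 gene, and strand cannot separate Ifi203 from Mndal, as both are on the minus strand.

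After rounding of the estimated counts, edgeR 4.0.16 (R 4.3.3) applied TMM scaling, its default filter (minimum count 10, minimum total 15) and a quasi-likelihood fit with the group as the only term, which left 12619 genes and 3 residual degrees of freedom. The script was tested on simulated data. SEs restate the test, as the size of the log2 fold change over the root of its F. Shared words came from GENCODE M21 transcripts on GRCm38, with Python 3.11.15. Ratios of low counts have exact binomial intervals.

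The members and lists were chosen with earlier results of these data known. Genes named are all members, other family genes with a row, from each of the 3 pathway lists up to 4 called genes per direction with the largest change plus Cgas, Sting1, Pycard, Casp1 and Irf7, called flanking genes and the 5 nearest profiles, except for a few that are not reported here; markers named beside their lists were chosen after their values were seen. Alternatives were RLE and upper quartile factors, no filter, a filter at 1 CPM, DESeq2 1.42.0, limma voom (limma 3.58.1), the replicate number as a block, and leaving out each library.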

Additional observations from a re-analysis of the deposited data

How the results depend on the processing

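The 8 lower members were called lower under all 12 alternative settings, and their number was 8 to 9 when single libraries were left out. Over the 12 settings the log2 fold change of Ifi213 ranged from -5.39 to -4.56 and that of Mndal from -1.18 to -0.99. The family sum ranged from -0.98 to -0.78 without single libraries, was -1.01 with upper quartile factors, and kept its call throughout; it was -0.90 with Ifi202b, Ifi206 and Ifi214 added. With upper quartile factors the median over all genes was -0.13 (-0.01 in the fit as reported), and 28.2% of the called genes were higher, against 39.4% in that fit and 30.1% to 51% without single libraries. Without single libraries the number of all genes called ranged from 1460 to 7808 against 3200. The DNA sensing list then had 4 to 12 genes called lower, the inflammasome list 1 to 6 and the flanking genes 2 to 6. The inflammasome list had 4 with upper quartile factors, 4 with DESeq2 and 5 with the replicate block. Ifi207 was called without control replicate 1 (-0.56), and Aim2 was not called without verapamil replicate 1 (0.73), 2 (0.71) or 3 (0.69). The causes of these changes were not tested, but a fit without 1 library has fewer samples. A fit without 1 of the controls keeps only 1 control and takes its spread from the treated libraries alone. Its calls are therefore not like those of the other fits.

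With the replicate block the family sum was -0.92 (adjusted p = 1e-04), Aim2 was 0.73 (adjusted p = 0.00615), 8 members were called lower and 3317 genes were called. Verapamil replicate 2 has no control of its number, so the difference in that fit rests on replicates 1 and 3 alone. Its spread is that of these 2 pairs, and its small p-values are not further evidence for the calls. The replicate numbers are not shown to pair the samples, and only 2 pairs exist. Correlations of their deviations from the group means were 0.289 (replicate 1) and 0.0224 (replicate 3). The deviations of the 2 controls mirror each other, so these values cannot decide whether samples were paired.

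At this depth Ifi202b and Ifi214 could not be tested, and the treated level of Ifi213 rests on 15 counts.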
